A study of Mus musculus with 2 samples.

Results

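Regulatory T cells that carried no transcript of Klrg1, Areg or Il1rl1 were taken out of 2 droplet single-cell libraries of tumour immune cells and described against the other CD4 T cells around them and between the libraries. A barcode was selected on its raw counts of unique molecular identifiers (UMIs): 200 or more genes detected, no more than 10% of UMIs from mitochondrial genes, at least 2 UMIs of the T cell receptor complex genes Cd3e, Cd3d and Cd3g together, at least 1 of Foxp3, 0 of Cd8a and Cd8b1, at most 1 of the phagocyte genes C1qa, C1qb and Csf1r, 0 of the B cell gene Cd79a, and 0 of Klrg1, Areg and Il1rl1. This gave 113 of 11197 kept cells, 48 of 5504 in the library named KP and 65 of 5693 in the library named KPT. They are called trio-negative regulatory T cells here, after the 3 genes they lacked.

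Both libraries came from mice with subcutaneous KP tumours dissected 14 days after inoculation, and live CD45-positive cells were sorted from the dissociated, Percoll-enriched tissue before 3' droplet libraries were made. KP carried the genotype label WT and KPT the genotype label Tdg KO, where Tdg is thymine DNA glycosylase, an enzyme of base excision repair that also takes part in cytosine demethylation. The series concerns Tdg in p53-deficient cancer. The labels name neither the cells that carried the knockout nor the number of mice behind a library. Each group is 1 library, so no comparison between KP and KPT has a replicate check and no test was made.

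Regulatory T cells are CD4 T cells that restrain other immune cells. Their lineage factor Foxp3 maintains high levels of the interleukin-2 receptor alpha chain Il2ra and of Ctla4, which takes costimulatory ligands away from other T cells, and keeps inflammatory cytokine genes low. In tissues and tumours many of them take on an effector form marked by Klrg1, the growth factor amphiregulin (Areg) and the interleukin-33 receptor Il1rl1, while others resemble the circulating form that expresses lymph node homing molecules.

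Over the whole of the 2 libraries, 5604 and 5896 barcodes were deposited for KP and KPT, and the kept cells had a median of 5378 and 6419 UMIs. Another 2 classes serve as comparison, both inside the same libraries. Effector regulatory T cells met every clause but held at least 1 UMI of Klrg1, Areg or Il1rl1 (349 cells in KP, 439 in KPT), and conventional CD4 T cells met every clause but held no Foxp3 UMI and at least 1 Cd4 UMI (429 and 413 cells). The trio-negative cells summed to 288573 UMIs in KP and 388578 in KPT, with medians per cell of 5214 (range 977 to 14659) and 5024 (range 1435 to 17787). Their median depth was close to that of the conventional cells (5390 and 5383) and under that of the effector cells (5918 and 7431).

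Depth enters the rule itself, because a Foxp3 UMI must be seen and a Klrg1, Areg or Il1rl1 UMI must not. Of the cells with Foxp3, 48 of 397 in KP (12.1%) and 65 of 504 in KPT (12.9%) were trio-negative. When those cells were ordered by total UMIs and split into 4 equal bins, the trio-negative share was 17.0% in the shallowest and 6.06% in the deepest bin of KP, and 21.4% and 5.56% in KPT. After every barcode was thinned to 1000 UMIs before the rule, 38.4% and 42.9% of the Foxp3 cells were trio-negative. At the threshold, 25 of the 48 KP cells and 20 of the 65 KPT cells held a single Foxp3 UMI, and the highest count was 7 and 10. Just outside it, 35 effector cells in KP and 50 in KPT held exactly 1 UMI of the 3 genes, against a median of 8 and 7 in that class. The 2 classes are thus separated by as little as 1 UMI, and how many trio-negative cells would show a Klrg1, Areg or Il1rl1 transcript at greater depth was not tested. A Foxp3 UMI in a B cell measures stray signal: it was seen in 2 of 211 B cells in KP (0.948%) and in 0 of 133 in KPT, which allows a share of up to 2.26% (3 of 133), at median depths of 3741 and 3594 UMIs.

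**Figure D1:**
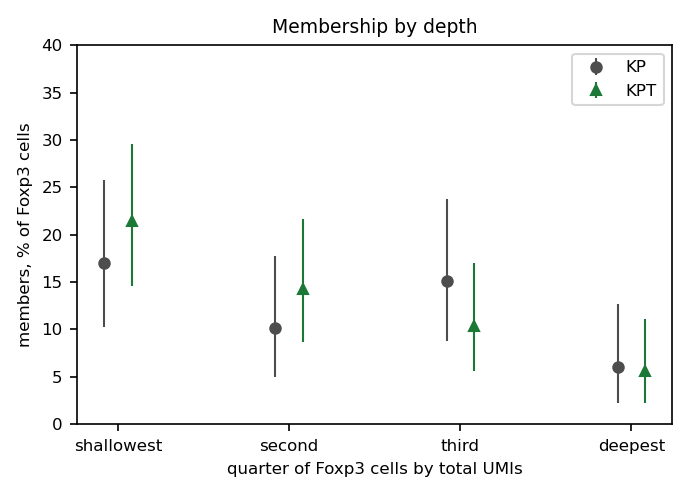
Trio-negative cells as a percentage of all Foxp3 cells (vertical axis) in 4 equal bins of those cells by total UMIs (horizontal axis), for KP (circles) and KPT (triangles); bars are exact 95% binomial intervals. The share is 17.0% and 21.4% in the shallowest bins and 6.06% and 5.56% in the deepest.

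Trio-negative cells were 1.82% of T cells in KP (48 of 2643, exact 95% interval 1.34 to 2.40%) and 2.18% in KPT (65 of 2986, 1.68 to 2.77%). The ratio of the shares was 1.20, with a 95% interval of 0.813 to 1.78, so a difference was not detectable at these cell numbers. All intervals here are exact binomial or exact conditional Poisson intervals and cover counting error only, not the spread between mice. Thinned to 1000 UMIs per barcode before the rule, the shares were 2.83% and 3.44% and their ratio 1.21 (0.841 to 1.76). Effector regulatory T cells took 13.2% and 14.7% of T cells, and conventional CD4 T cells 16.2% and 13.8%, a ratio of 0.852 (0.743 to 0.978) for the latter. With barcodes thinned before the rule, the conventional ratio was 0.832 (0.661 to 1.045), an interval that includes 1.

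The label was checked against the regulatory T cell markers Il2ra, Izumo1r and Tnfrsf4, since Foxp3 is fixed by the rule. At least 1 of these 3 was detected in 42 of 48 cells in KP (87.5%) and in 55 of 65 in KPT (84.6%), against 6.64% and 8.27% of B cells, but also in 77.9% and 76.3% of conventional cells, where Tnfrsf4 was found in 73.0% and 72.9%. All 3 together were found in 13 cells of KP (27.1%) and 25 of KPT (38.5%), against 1.63% and 1.21% of conventional cells and 52.2% and 49.7% of effector regulatory cells. With each cell thinned to 1000 UMIs, at least 1 of the 3 was found in 66.0% and 69.2% of the trio-negative and 46.3% and 38.4% of the conventional cells. At least 3 of 10 regulatory T cell markers (those 3, Ikzf2, Ctla4, Tnfrsf18, Ikzf4, Lrrc32, Gpr83 and Tigit) were detected in 46 of 48 (95.8%) and 57 of 65 (87.7%) trio-negative cells, 59.0% and 62.2% of conventional cells and 0.948% and 2.26% of B cells. Gpr83, with 0 and 1 UMI, and Tigit, with 5 and 3 UMIs, were the sparse markers of that set.

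Levels are CPM, a gene's UMIs divided by all UMIs of the class in that library and scaled to 1000000, and the higher or lower values against conventional cells are a description, since those classes were chosen by Foxp3 in the same cells. Foxp3 itself stood at 357 CPM in KP and 458 CPM in KPT, close to the 412 and 354 CPM of effector regulatory cells. Il2ra reached 340 and 381 CPM in trio-negative cells against 58.5 and 39.3 CPM in conventional cells, ratios of 5.81 and 9.69, and was found in 30 of 48 and 39 of 65 cells. Izumo1r, the folate receptor family member FR4 of regulatory T cells, stood at 128 and 196 CPM against 21.6 and 35.9 CPM. Tnfrsf4, the costimulatory receptor OX40, stood at 1001 and 1318 CPM against 668 and 551 CPM, which is 1.499 times in KP, just inside the 1.5-fold used for calls, and 2.39 times in KPT. The 3 markers that the rule left free were thus above the conventional level in each library, with the narrowest margin for Tnfrsf4, whose smaller ratio was past 1.5-fold in 9 of 16 alternative treatments of the data (1.21 to 1.73).

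Other genes of the identity programme followed the same pattern. Ikzf2, which encodes Helios, was at 873 and 1076 CPM against 122 and 134 CPM in conventional cells, and its relative Ikzf4 (Eos) was 3.03 and 4.22 times the conventional level. Ctla4 stood at 898 and 1081 CPM against 300 and 356 CPM. Lrrc32, which presents latent TGF-beta on the cell surface, was at 72.8 and 64.3 CPM from 21 and 25 UMIs, against 3.08 and 4.16 CPM. Itgb8, an integrin chain that releases active TGF-beta, was at 52.0 and 54.0 CPM from 15 and 21 UMIs, against 1.54 and 3.40 CPM. The 2 genes of TGF-beta handling were thus almost without signal in conventional cells. Both lay under the minimum of 50 UMIs over the 2 classes in each library, so neither could be called. Of 12 genes of a TGF-beta pathway list that could be tested, 1 was higher and 1 lower than in conventional cells. Their medians were −0.06 in KP and 0.02 in KPT on the log2 scale.

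**Figure D2:**
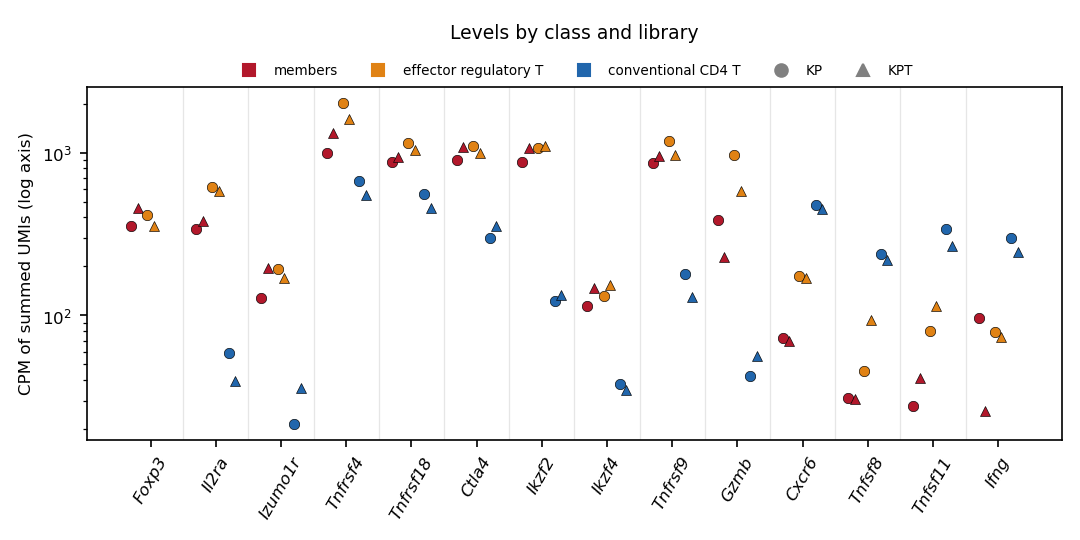
Level of 14 genes in CPM of summed UMIs (vertical axis, log scale) in trio-negative cells (members, red), effector regulatory T cells (orange) and conventional CD4 T cells (blue), for KP (circles) and KPT (triangles); Foxp3 of conventional cells is 0 by the rule and not drawn. The regulatory genes from Il2ra to Tnfrsf9 lie above the conventional points in both libraries, and Cxcr6, Tnfsf8, Tnfsf11 and Ifng lie below them.

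Across all genes, 5348 had at least 50 UMIs over the 2 classes in each library, and 257 of them (4.81%) were more than 1.5-fold higher in trio-negative than in conventional cells in both libraries, 192 (3.59%) more than 1.5-fold lower. With mitochondrial and ribosomal genes left out of the totals the split was 188 higher and 250 lower. The median gene stood at a log2 ratio of 0.04 in each library. Of the 12 regulatory T cell identity genes tested, 10 were higher and 0 lower, with medians of 2.21 and 2.39 on the log2 scale. Foxp3, which the rule used, is among the 10.

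The 15 genes that stood highest against conventional cells by the bound nearest to 1 were led by Ikzf2, Bmyc and Il2ra. Bmyc, a short relative of the Myc proteins, was at 211 and 172 CPM against 20.8 and 20.4 CPM. Tnfrsf9, the costimulatory receptor 4-1BB, was at 863 and 957 CPM against 181 and 129 CPM, ratios of 4.78 and 7.41. The cytotoxic protease gene Gzmb was at 385 and 229 CPM against 42.3 and 56.7 CPM. Itgav, an integrin chain that pairs with Itgb8, was 3.65 and 3.89 times the conventional level. Arl5a, Rrad, Gimap7, Cd27, Pmaip1, Ccr2, Samhd1 and Zfp36l1 completed the group with Ctla4, at 2.26 to 5.63 times in KP and 2.33 to 5.19 times in KPT.

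The 15 genes that stood lowest against conventional cells included helper and effector molecules of T cells. Cxcr6, a chemokine receptor of tissue-resident and activated T cells, was at 72.8 and 69.5 CPM against 480 and 453 CPM, ratios of 0.152 and 0.153. Tnfsf8, the ligand CD30L, was at 31.2 and 30.9 CPM against 238 and 219 CPM. Tnfsf11, the ligand RANKL, was at 27.7 and 41.2 CPM against 342 and 268 CPM. All 3 were low in both libraries alike.

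Ifng, which encodes interferon gamma, stood at 97.0 CPM in KP and 25.7 CPM in KPT against 301 and 247 CPM in conventional cells. Cd40lg, through which helper T cells license B cells and dendritic cells, had 11 UMIs in KP, a ratio of 0.327, and 0 UMIs in KPT, where conventional cells had 63.5 CPM. Csf2 had 2 UMIs in each library, against 94.3 and 40.8 CPM in conventional cells. The death ligand Fasl was 0.194 and 0.332 times the conventional level and the activating receptor Cd226 0.360 and 0.288 times. Of 15 conventional T cell cytokine genes tested, 9 were lower and 1, Ccl5, was higher, with medians of −1.88 and −1.90 on the log2 scale. Among all tested genes, 3.59% were lower. The minimum for testing was set on both classes summed, and conventional cells held 2598390 and 2646013 UMIs against 288573 and 388578. Genes high in conventional cells thus passed it more readily, which favours lower calls in this and the other lists. How far this shaped the count and medians was not tested. No UMI of Il3, Il4, Il5, Il13, Il17f, Il21 or Il22 was found in either library's trio-negative cells.

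The Ifitm genes, small interferon-induced membrane proteins, formed a second low group. Ifitm1, Ifitm2 and Ifitm3, the 3 tested, were all lower, with medians of −2.47 in KP and −1.44 in KPT on the log2 scale, and 15 of the trio-negative cells in each library held any UMI of the family. Genes of the type I interferon response did not follow them, with 4 of 15 higher, Isg15, Ifi27l2a and Ifi209 among them, 0 lower and medians of 0.57 and 0.58. Bcl2a1d, Ostf1, Slfn2, Plac8 and Nmrk1 also stood among the 15 lowest. In single alternatives Plac8 (0.902, thinned before the rule), Cd226 (0.813, thinned cells) and Ifitm3 (0.710, stricter clauses against other lineages) came within 1.5-fold in one library. Cd4 was also among the 15 lowest, but a Cd4 UMI was required of the conventional cells only, so its ratio is set by that choice. It was detected in 41.7% and 52.3% of the trio-negative cells.

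**Figure D3:**
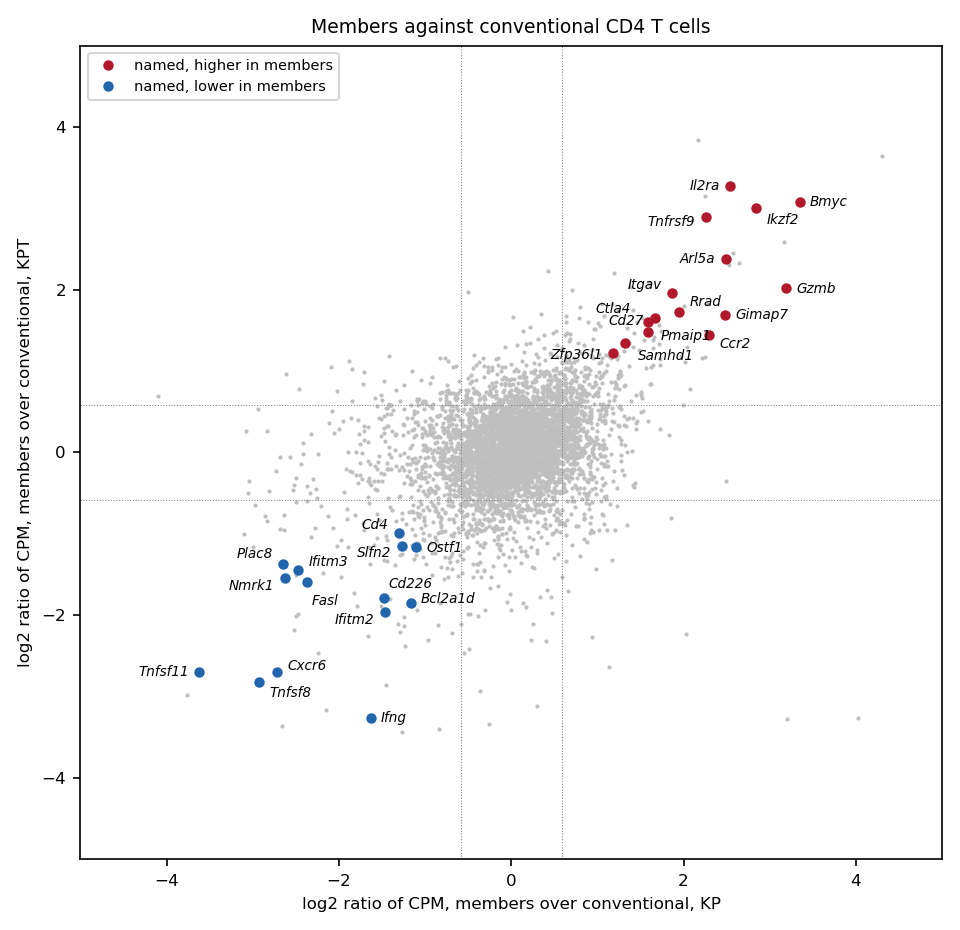
Log2 ratio of CPM in trio-negative over conventional CD4 T cells in KP (horizontal axis) and KPT (vertical axis), 1 grey point for each tested gene with UMIs in every class; red and blue points are the named genes, and dotted lines mark 1.5-fold. Bmyc, Ikzf2, Il2ra and Gzmb lie at the upper right and Tnfsf11, Tnfsf8, Cxcr6 and Ifng at the lower left; Cd40lg is not drawn because KPT had 0 UMIs.

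Homing genes were mixed. Of 17 chemokine and trafficking receptor genes tested, 7 were higher than in conventional cells in both libraries, among them Ccr2, Ccr7, Itgae, Itga4 and Itgb7, and 2 were lower (Cxcr6 and Gpr183). Ccr7, which guides cells to lymph nodes, was at 461 and 381 CPM against 254 and 184 CPM. Tcf7, a transcription factor of naive and memory T cells, went the other way, with 79.7 and 54.0 CPM against 158 and 140 CPM. The genes of naive and central memory cells thus did not move as a group, with 3 of 16 higher and 2 lower.

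The remaining groups are given by their counts. The glycolysis and hypoxia genes had 5 of 23 higher and 0 lower, the interferon gamma response genes 5 of 17 higher and 0 lower, and the TNF receptor costimulation genes 3 of 11 higher (Tnfrsf18, Tnfrsf9 and Cd27) and 3 lower (Cd40lg, Tnfsf8 and Tnfsf11). The genes of that last group called higher are receptors and those called lower are ligands, and the other 5, the receptor gene Tnfrsf4 among them, were not called. Heat shock genes had 0 of 12 called either way, oxidative phosphorylation genes 0 of 17, and cell cycle genes 2 of 10 lower (Stmn1 and Dut).

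Against effector regulatory T cells, which the rule separated only by Klrg1, Areg and Il1rl1, fewer genes were called higher than against conventional cells. Of 5918 genes tested, 80 (1.35%) were more than 1.5-fold higher in both libraries and 192 (3.24%) lower. With mitochondrial and ribosomal genes left out of the totals, 100 were higher and 167 lower. Of 14 identity genes tested, 0 were called higher and 1, Il2ra, was called lower, at 340 and 381 CPM against 612 and 585 CPM. That call held in 9 of 15 alternatives, and the ratio nearest to 1 was 0.958 when barcodes were thinned before the rule. Ikzf2 was 0.814 and 0.984 times the effector level.

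The lower group included effector and inflammatory genes. Gzmb was 0.395 and 0.394 times the effector level, from 385 and 229 CPM against 973 and 581 CPM. Cxcr6 was 0.414 and 0.406 times, Tnfsf11 0.345 and 0.358 times, and Fabp5, a fatty acid binding protein, 0.489 and 0.317 times. The trefoil peptide gene Tff1 had 1 and 13 UMIs, 3.46 and 33.5 CPM against 145 and 103 CPM. The chemokine genes Ccl3, Ccl4 and Cxcl2 were at 20.8, 41.6 and 249 CPM in KP and 12.9, 286 and 43.8 CPM in KPT, each under the effector level of its library. With stricter clauses against other lineages Ccl4 was above the effector level in one library (1.65 times), and Cxcl2 was (2.33 times) when the phagocyte clause was left out. Of 21 effector and tissue regulatory T cell genes tested, 6 were lower (Gata3, Ccr2, Gzmb, Il1r2, Dgat2 and Tff1) and 1 was higher (Cxcr3), with medians of −0.66 and −0.19. The 3 tested Ifitm genes were lower here too, with medians of −2.94 and −1.14. Of the lower genes, Fabp5 and Ifitm1 were past 1.5-fold in only 9 of 14 and 9 of 13 alternatives, Fabp5 reaching 0.850 times without the cells high in heat shock genes and Ifitm1 0.971 times without the deepest 5% of T cells. Gzmb reached 0.7501 times when thinned before the rule and Cxcr6 0.811 times with stricter clauses against other lineages.

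Ranked by the interval bound nearest to 1 in the weaker library, the 10 named genes above the effector level were the inducible heat shock genes Hspa1b and Hspa1a, then Ccl5, Nt5e, Jun, Hsp90aa1, Rgs16, Ccr7, Hspe1 and Snhg1. Hspa1a, Hspa1b and Nt5e were past 1.5-fold in both libraries, and the smaller ratio of the other 7 lay between 1.28 (Hsp90aa1) and 1.47 (Snhg1). Nt5e encodes CD73, which makes adenosine outside the cell, and stood at 225 and 278 CPM against 142 and 119 CPM. Ccl5, a T cell attracting chemokine, was at 1230 and 1197 CPM against 831 and 844 CPM. Among cells with at least 2 Foxp3 UMIs, the smaller ratio was 1.07 for Nt5e and 0.747 for Ccl5. Cxcr3, the receptor for interferon-induced chemokines, was 1.87 and 1.67 times the effector level.

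Hspa1a and Hspa1b encode the same inducible HSP70 protein from neighbouring genes. Hspa1a lies on the minus strand of chromosome 17 at 34969190 to 34972156 and Hspa1b at 34956436 to 34959238 (mm10). Their promoters are shown because the pair leads the named genes that were higher than in effector cells and counts of near-identical genes cannot be divided between them with certainty. The RefSeq sequences run from 250 bases before to 50 after the start of each gene on GRCm38.p6, chr17:34972107-34972406 for Hspa1a and chr17:34959189-34959488 for Hspa1b, both on the minus strand and written 5' to 3'.
Hspa1a: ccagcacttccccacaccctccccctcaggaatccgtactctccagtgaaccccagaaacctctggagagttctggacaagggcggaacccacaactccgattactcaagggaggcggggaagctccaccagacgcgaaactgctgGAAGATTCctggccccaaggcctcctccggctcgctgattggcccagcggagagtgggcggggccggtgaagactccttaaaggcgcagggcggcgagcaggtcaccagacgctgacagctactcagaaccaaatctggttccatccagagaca
Hspa1b: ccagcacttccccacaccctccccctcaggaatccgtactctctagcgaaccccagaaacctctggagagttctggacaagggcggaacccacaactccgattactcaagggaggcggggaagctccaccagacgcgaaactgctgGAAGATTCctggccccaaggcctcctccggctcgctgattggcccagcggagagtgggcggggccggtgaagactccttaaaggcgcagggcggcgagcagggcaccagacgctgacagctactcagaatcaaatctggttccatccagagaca
Capitals mark the 1 match in each to GAANNTTC or TTCNNGAA, the inverted repeat of the heat shock factor site, searched on both strands. The 2 promoters differ at 4 of 300 bases (98.7% identical). A match occurs in 15.1% of 32851 mouse promoters of this length, so it is a description of the pair and not evidence of binding.

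Hspa1a was at 1182 CPM in KP and 1336 CPM in KPT, against 410 and 400 CPM in effector and 699 and 928 CPM in conventional cells, 2.88 and 3.34 times the effector level. Hspa1b was at 759 and 770 CPM against 227 and 249 CPM, 3.34 and 3.09 times. The signal sat in few cells. In KP, 8 of 48 trio-negative cells held at least 10 UMIs of the pair and carried 549 of its 560 UMIs (98.0%), and in KPT 8 of 65 cells carried 787 of 818 (96.2%). The remaining cells were at or near 0, with no UMI in 36 of the KP and 47 of the KPT cells. The threshold of 10 UMIs was chosen after the values were seen.

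Cells of this kind were also found among conventional and effector cells. They made up 16.7% of trio-negative cells in KP (7.48 to 30.2%) and 12.3% in KPT (5.47 to 22.8%), against 10.7% and 13.8% of conventional and 8.31% and 9.79% of effector cells. In the cells under the threshold the pair summed to 49.3 and 89.7 CPM in trio-negative cells, 60.5 and 58.3 CPM in conventional and 51.8 and 42.5 CPM in effector cells. When such cells were left out of every class, Hspa1a was 0.807 times the effector level in the library with the smaller ratio. The cells left out are defined by the UMIs of this pair, so that value describes where the UMIs lay and is no separate check. For genes that did not define them, the smaller ratio without those cells was 0.976 for Jun, 0.832 for Hsp90aa1 and 0.814 for Hspe1. These genes were also higher in the cells left out than in the others, so their values are no separate check either.

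**Figure D4:**
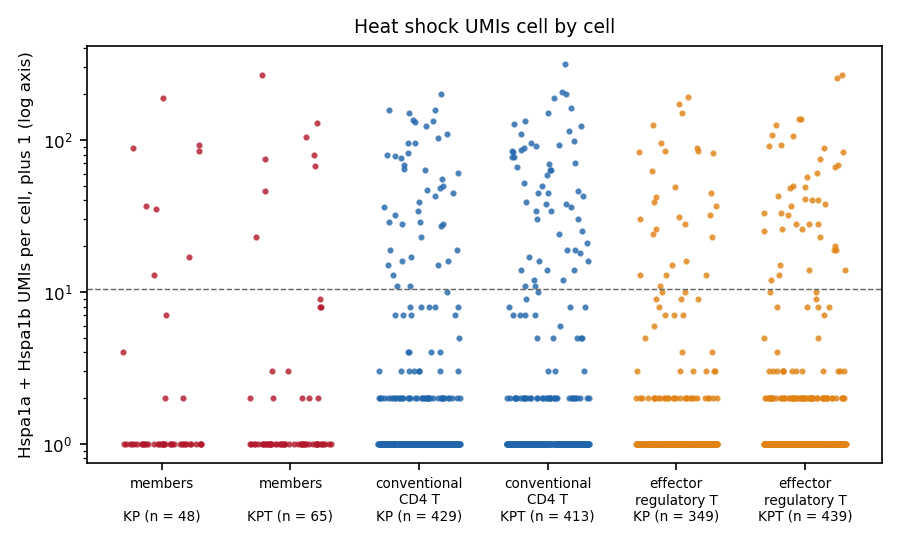
UMIs of Hspa1a and Hspa1b together in each cell, plus 1 (vertical axis, log scale), for trio-negative cells (members), conventional and effector cells of each library (horizontal axis, spread sideways to separate points); the dashed line separates cells with at least 10 UMIs. In each class most cells lie at 0, and 8 trio-negative cells of KP and 8 of KPT lie above the line.

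Those cells held more of other stress genes too. Jun, a component of the AP-1 factor, was 5.47 and 8.42 times as high in them as in the other trio-negative cells of KP and KPT, Hsp90aa1 4.17 and 10.3 times, and the cochaperone gene Dnajb1 5.91 and 8.05 times. Klf2, a transcription factor of quiescent and recirculating T cells, was 3.86 (3.05 to 4.89) and 5.94 (4.45 to 7.90) times as high. In KPT 1 of these cells held 45 of their 87 Klf2 UMIs, and another held 84 of their 161 Jun UMIs. Il2ra was lower in the cells high in Hspa1a and Hspa1b, 0.145 times (0.0388 to 0.384) in KP and 0.460 times (0.195 to 0.932) in KPT. These intervals do not cover the spread between the few cells of each library. The libraries differed in other activation genes, each level resting on 8 cells per library. In KP, Tnfrsf9 was at 0.0276, Ctla4 at 0.286 and Tnfrsf4 at 0.323 times the level of the other cells. In KPT the same genes were at 0.970, 0.942 and 1.13 times. However, 28 of the 40 Tnfrsf9 UMIs in these KPT cells lay in 1 cell, so the KPT ratio of Tnfrsf9 rests largely on that cell. The median depth of the cells high in Hspa1a and Hspa1b was 7995 UMIs in KP against 4628 in the other cells, and 4624 against 5024 in KPT. Such cells of the other classes differed from the rest of their class in the same directions. Klf2 was 2.52 and 2.01 times as high in conventional and 1.16 and 1.79 times in effector cells. Jun was 6.645 and 5.72 times and 3.67 and 2.29 times as high, and Il2ra 0.484 and 0.765 times and 0.602 and 0.776 times.

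How far the trio-negative cells were alike was examined with a pair of genes of T cell activation in tumours, Ccr8 and Tnfrsf9. Either gene was found in 32 of 48 cells in KP (66.7%) and 51 of 65 in KPT (78.5%). In conventional cells the shares were 41.0% and 34.1%. Thinned to 1000 UMIs a cell, the trio-negative shares were 40.4% and 52.3%. Tnfrsf9 was found in 30 and 49 cells, while Ccr8 had only 4 and 12 UMIs.

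Cells with Ccr8 or Tnfrsf9 held more of other activation genes than cells without. Il2ra was at 434 against 140 CPM in KP and 413 against 161 CPM in KPT, ratios of 3.10 (1.72 to 6.06) and 2.56 (1.26 to 6.04). Tnfrsf4 was 2.16 and 2.19 times as high, Tnfrsf18 (GITR) 2.26 and 1.90 times, Ctla4 1.64 and 1.56 times, and the NF-kappaB subunit gene Rel 2.14 and 3.22 times. Klf2 was 0.402 (0.317 to 0.510) and 0.157 (0.118 to 0.208) times as high.

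The cells high in Hspa1a and Hspa1b touch this split. In KP 6 of the 8 lay among the 16 cells without Ccr8 or Tnfrsf9 and held 132 of the 158 Klf2 UMIs there, and in KPT 2 of the 8 lay among the 14 such cells and held 55 of 99. Without them, a choice made after the data were seen, the Klf2 ratio was 0.912 (0.590 to 1.46) in KP and 0.240 (0.163 to 0.357) in KPT. In KP the ratios of Il2ra, at 1.61 (0.856 to 3.35), and Ctla4, at 1.095 (0.774 to 1.59), then had intervals that include 1, and Rel did as well at 1.83 (0.914 to 4.15), while Tnfrsf18 was at 2.34 (1.44 to 4.03). In KPT the ratios of Il2ra, Tnfrsf4, Tnfrsf18, Ctla4 and Rel were between 1.77 and 3.26 without those cells.

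Ccr7 went in different directions along the split, at 634 against 96.9 CPM in KP and 339 against 666 CPM in KPT. In KPT the cells with the pair were also deeper, at a median of 5544 against 3084 UMIs, while in KP the medians were 5010 and 5440.

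Between the libraries, 1009 genes had at least 100 UMIs over the trio-negative cells of both. Of these, 63 (6.24%) were more than 1.5-fold higher in KPT and 36 (3.57%) more than 1.5-fold lower. The median log2 ratio was 0.01. Most identity genes lay within 1.5-fold between the libraries. Foxp3, a gene of the rule, stood at 357 and 458 CPM, a ratio of 1.28, Il2ra at 340 and 381 CPM, Ikzf2 1.23 times and Tnfrsf4 1.32 times (1.14 to 1.53). Of 9 identity genes tested, 2 were higher in KPT, Izumo1r (1.52) and Itgae, and 0 were lower. Izumo1r was past 1.5-fold in 5 of 10 alternatives (lowest 1.17). When barcodes were thinned before the rule, Tnfrsf4 was 0.686 and Ikzf2 0.828 times as high in KPT.

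Itgae encodes CD103, the integrin chain that holds T cells to epithelium through E-cadherin. It had 20 UMIs in 12 of 48 cells in KP and 84 UMIs in 26 of 65 cells in KPT, 69.3 against 216 CPM, a ratio of 3.12 (1.90 to 5.36). Without the cell of highest count in each library the ratio was 3.11. In conventional cells the KPT to KP ratio was 0.982 and in effector cells 0.801, and the differences between classes were not tested. Fgl2, a secreted product linked to suppression by regulatory T cells, had 23 and 87 UMIs, 79.7 and 224 CPM, a ratio of 2.81 (1.76 to 4.66), against 1.26 in conventional and 1.15 in effector cells. Both were past 1.5-fold in the 9 alternatives in which they kept enough UMIs to be tested. Of these, a minimum of 20 UMIs cannot move the ratio. Leaving out the deepest 5% of T cells removed no trio-negative cell and left it unchanged. Alternatives in which they fell under the minimum were not counted.

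Mxd1, a partner of Max that counters Myc, was at 270 and 484 CPM, a ratio of 1.79 (1.37 to 2.36). Ly6e was 1.56 times, Crem 1.67 times and Rgs2 1.56 times as high in KPT. Ly6e was past 1.5-fold in 8 of 15 alternatives, Crem in 10 of 13 and Rgs2 in 11 of 15. When barcodes were thinned before the rule, Ly6e stood at 1.06 and Rgs2 at 0.857 times. Il10, the suppressive cytokine, had 7 UMIs in KP and 44 in KPT and so lay under the 100 UMIs set for testing.

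Most of the largest ratios came from a few barcodes. Il1b had 6 UMIs in KP and 165 in KPT, H2-Ab1 11 and 195, H2-Aa 13 and 162, and H2-Eb1 13 and 132, ratios of 20.4, 13.2, 9.25 and 7.54. With the phagocyte clause left out the Il1b ratio was 1.09. Of the 911 UMIs of these H2 genes and Cd74 in KPT, 441 lay in 1 cell of 17787 UMIs and 346 in 1 of 10761 UMIs, and those cells also held 128 and 31 of the Il1b UMIs. In KP 88 of 153 lay in 1 cell of 7719 UMIs. The 2 KPT cells held 7 and 15 UMIs of the CD3 genes and 4 Foxp3 UMIs each. MHC class II and Il1b mark antigen-presenting cells, and the dendritic cell list summed to 57 UMIs in KP and 521 in KPT, 275 of them in 1 cell. The B cell list summed to 801 and 1346 CPM in KP and KPT, the NK list to 475 and 620 CPM, the phagocyte list to 471 and 463 CPM, the neutrophil list to 447 CPM (71 of 129 UMIs in 1 cell) and 18.0 CPM, and the gamma-delta T list to 135 and 136 CPM. Among the defining genes, Ms4a1 and Ebf1 of B cells, C1qc, Ms4a7 and Adgre1 of phagocytes and Retnlg, Cxcr2, G0s2, Csf3r and Il1f9 of neutrophils were at 0 in both libraries. The part of doublets or of RNA from other cells in these ratios was not tested.

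Cells with at least 10 UMIs of NK, gamma-delta T, B, phagocyte, neutrophil or dendritic cell genes numbered 11 of 48 in KP and 13 of 65 in KPT. Without them, a choice made after the data were seen, 37 and 52 cells remained, and 24 of 665 genes were higher in KPT and 23 lower. Of the calls that could still be tested, 10 of 23 higher genes and 14 of 19 lower genes were called again. Cd74 and Cst3 were 2.70 and 2.33 times as high in KPT in all cells, but 0.483 and 0.420 times with stricter limits on genes of other lineages. The chemokine genes Ccl4 (12 against 111 UMIs), Xcl1 (20 against 155) and Cxcl10 (26 against 74) were 6.87, 5.76 and 2.11 times as high in KPT. For Xcl1, 17 of the 20 KP UMIs came from 1 cell and only 4 and 9 cells held any, and its ratio was 24.6 without the top cell of each library. The Cxcl10 ratio was 1.11 with the phagocyte clause left out.

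The genes lower in KPT included S1pr1 and Klf2, which act together in leaving tissue: S1pr1 is the receptor that draws T cells into lymph and blood, and Klf2 drives its transcription. S1pr1 had 72 UMIs in KP and 38 in KPT, in 20 cells of each, 250 against 97.8 CPM, a ratio of 0.392 (0.257 to 0.589). In conventional cells its ratio was 1.06 and in effector cells 0.895. The S1pr1 ratio stayed between 0.3331 and 0.412 in the 8 alternatives in which it kept enough UMIs to be tested. Of these, a lower UMI minimum cannot move the ratio, and leaving out the deepest T cells removed no trio-negative cell. Alternatives in which S1pr1 fell under the minimum were not counted. Among them was leaving out the cells high in Hspa1a and Hspa1b, where S1pr1 stood at 251 CPM in KP and 107 CPM in KPT. Klf2 had 292 and 205 UMIs, 1012 against 528 CPM, a ratio of 0.521 (0.434 to 0.626), with 0.791 in conventional and 0.789 in effector cells. It was past 1.5-fold in 10 of 13 alternatives (0.407 to 0.766). KP thus had the higher level of both genes, although a majority of its cells held no S1pr1 UMI.

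Glycolytic enzymes made up another part. Eno1 was at 447 CPM in KP and 208 CPM in KPT, a ratio of 0.466 (0.349 to 0.620), Aldoa at 776 and 430 CPM, 0.554 (0.450 to 0.680), and Gapdh at 1771 and 1166 CPM, 0.658 (0.579 to 0.749). Of 12 glycolysis and hypoxia genes tested, 5 were lower and 0 higher, with a median of −0.51 on the log2 scale. The same genes were also lower in KPT in the other classes, Eno1 at 0.740 and 0.718 times and Aldoa at 0.682 and 0.748 times in conventional and effector cells. Eno1 and Aldoa were past 1.5-fold in 13 of 13 alternatives.

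Genes of the cytoskeleton, S100 proteins and galectins were lower as well, 5 of 17 with 0 higher and a median of −0.34. Tmsb10, an actin-binding thymosin, was at 6175 and 3618 CPM, a ratio of 0.586, with 0.673 and 0.706 in conventional and effector cells. Lgals1 (galectin-1) was at 1535 and 844 CPM, 0.550 times, Anxa2 at 426 and 221 CPM, 0.519 times, and Crip1 at 3129 and 2069 CPM, 0.661 times. Lgals3 had the lowest ratio of the named genes at 0.317, but 50 of its 117 KP UMIs lay in 1 cell and its ratio was 1.115 with the phagocyte clause left out. Rgs1 was at 2325 and 1495 CPM (1.24 times as high in KPT when thinned before the rule), Ifi27l2a at 2738 and 1699 CPM and Cited2 at 329 and 185 CPM. The ferritin gene Fth1 (0.721) and S100a6 (0.687) had intervals clear of 1 but lay within 1.5-fold, and Fth1 was 1.12 times as high in KPT without the cells that held genes of other lineages. Some calls of this group were lost in single alternatives. Tmsb10 reached 0.853 times when thinned before the rule, Ifi27l2a 0.842 times in thinned cells, Cited2 0.876 times with cells weighted equally and Gapdh 0.843 times without the cells that held genes of other lineages.

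Gzmb was 0.595 times as high in KPT (0.445 to 0.794), and 1.34 times in conventional and 0.597 times in effector cells. Icos, a costimulatory receptor of activated and regulatory T cells, was 0.734 times as high (0.615 to 0.876) and the transcription factor gene Maf 0.716 times (0.573 to 0.894). Heat shock genes did not differ past 1.5-fold, with 0 of 11 called. Oxidative phosphorylation genes had 1 of 15 lower.

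Tdg was too sparse to describe in these cells, with 5 UMIs in KP (17.3 CPM) and 13 in the library labelled Tdg KO (33.5 CPM). UMIs at the 3' end do not show whether a part of the gene was deleted and so do not check the label. Of the 16 genes of Tdg and DNA demethylation, only Gadd45b reached 100 UMIs over both libraries, at 780 and 579 CPM, within 1.5-fold.

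**Figure D5:**
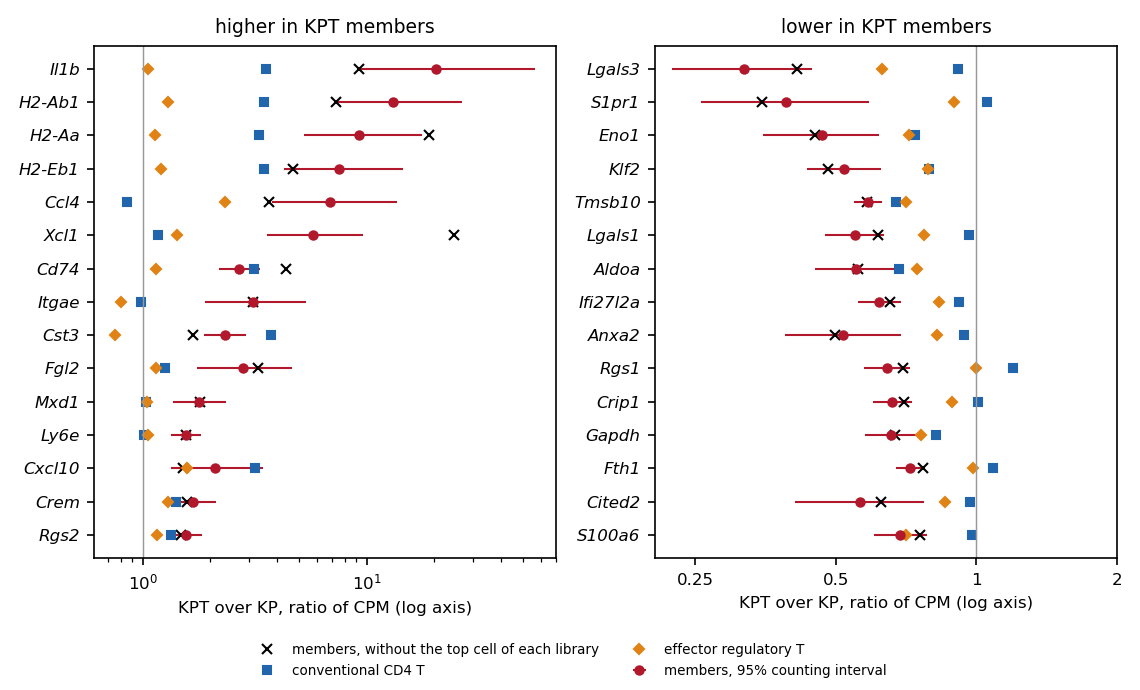
Ratio of CPM in KPT over KP (horizontal axes, log scale) for the 15 named genes higher (left) and lower (right) in KPT trio-negative cells (members, red, with exact 95% counting intervals); crosses leave out the top cell of each library, blue squares are conventional and orange diamonds effector cells. Il1b and the H2 genes lie far to the right of the other classes, Itgae and Fgl2 keep their place without the top cell, and S1pr1 lies at 0.392 where the other classes lie near 1.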

How the data were processed

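The authors deposited whole-number UMI counts for each gene in each barcode, not normalised and made with Cell Ranger 6.0.1 per the file headers. Cell Ranger, Seurat and mm10 stand in the submitters' processing notes. The aligner's settings were not given in the sources used here, nor was the annotation. The 32285 listed genes were summed to 32245 symbols. Barcodes with fewer than 200 genes or over 10% of UMIs from mitochondrial genes were dropped, and the marker clauses of the rule were applied. No doublet caller was run. The libraries shared 8 barcode sequences, 0 of them in the trio-negative cells.

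UMIs were summed per library and class and set as CPM. With 1 library per group no test was possible, and ratios carry exact conditional Poisson 95% intervals and shares Clopper-Pearson 95% intervals. A gene was called past 1.5-fold, in both libraries for comparisons of classes, given 100 UMIs over the trio-negative cells of both libraries or 50 over 2 classes in each library. Named genes were the 15 each way (10 against effector cells) ranked by the interval bound nearest to 1, from those with at least 50 UMIs in the higher library or class and found in 5% of its cells (10% between classes), without mitochondrial, ribosomal, haemoglobin, sex-linked, immunoglobulin and receptor genes, gene models and genes of the rule, plus the most abundant and most extreme members of 35 gene lists, of whose entries 1 was not found. Members and lists were chosen with earlier results of these data known. Thinning drew 1000 UMIs per barcode without replacement. The scripts (Python 3.11.15, numpy 2.4.6, scipy 1.17.1, pandas 2.3.3, matplotlib 3.10.9) were tested on simulated data. Gene coordinates are GENCODE's for the mm10 build and promoter sequences are RefSeq's.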

Additional observations from a re-analysis of the deposited data

Results flagged for a closer look

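These 3 genes moved one way between the libraries in trio-negative cells and the other way in conventional CD4 T cells. The difference between the classes was not tested for any of them. Ccl4, a chemokine of activated T cells, was 6.87 times as high in KPT as in KP in trio-negative cells and 0.854 times in conventional cells, and 72 of its 111 KPT UMIs lay in the cell with the most MHC class II UMIs. Rgs1, a regulator of chemokine receptor signalling, was 0.643 times as high in KPT and 1.20 times in conventional cells. Fth1, a ferritin chain, was 0.721 times as high and 1.09 times in conventional cells, but 1.12 times as high in trio-negative cells once cells with genes of other lineages were left out, and 0.686 to 0.9002 times in the other 14 alternatives. Thinned before the rule, Rgs1 was 1.24 times as high in KPT.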

How the results depend on the processing

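For the share of T cells and the 6 counts of genes, 99 values were recomputed under alternatives: 73 stayed within the interval or within 1.5 times the count, 26 moved further and 0 reversed. The ratio of shares stayed within its interval throughout. Stricter clauses against other lineages gave 40 genes higher in KPT and 116 lower than in effector cells. Thinning every barcode before the rule, which leaves fewer genes to test, gave 3 higher and 7 lower in KPT, 23 higher and 23 lower than conventional, and 0 higher and 6 lower than effector cells. Thinning the chosen cells gave 10, 7, 54, 70, 20 and 61 in the same order. A minimum of 20 UMIs gave 687, 389, 472, 378, 199 and 434. Weighting cells equally gave 157 genes higher than effector cells. Conventional cells taken whatever their Klrg1, Areg and Il1rl1 gave 303 lower, and with at least 2 Cd4 UMIs 157 higher. Leaving out cells with genes of other lineages, added after the data were seen, gave 24 higher and 23 lower in KPT and 41 higher than effector cells.

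Of 1287 values for named genes, 1112 stayed, 167 moved and 8 reversed, where a reversal is a gene past 1.5-fold that crossed 1. Another 22 values crossed 1 in 12 comparisons of genes that had not been past 1.5-fold, among them Fth1 (1.12, cells with genes of other lineages left out), Tnfrsf4 and Ikzf2 (0.686 and 0.828, KPT over KP, thinned before the rule), and Ccl5 (0.747, at least 2 Foxp3 UMIs), Hsp90aa1 and Hspe1 (0.832 and 0.814, without the heat shock cells) against effector cells. Il1b and Cxcl10 were 1.09 and 1.11 times as high in KPT without the phagocyte clause. With stricter clauses Cd74 and Cst3 were 0.483 and 0.420 times as high in KPT and Ccl4 was 1.65 times the effector level in the library where its margin was smaller. Without the phagocyte clause Lgals3 was 1.115 times as high in KPT and Cxcl2 2.33 times the effector level. Thinned before the rule, Rgs2 was 0.857 and Rgs1 1.24 times as high in KPT. Without the heat shock cells Hspa1a was 0.807 times the effector level. Beyond the number of genes tested, the cause was not tested.

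No paired analysis was possible because each group is 1 library. With 48 and 65 cells, genes under 100 UMIs in sum, Il10, Tigit and Tdg among them, cannot be compared between libraries.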
